A study of Triticum aestivum with 24 samples.

Results

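The response of the wheat *idd5* mutant to GA3 was examined in 8 leaf sheath libraries, 4 from GA-treated and 4 from water-treated seedlings. The genes considered were those with at least 0.5 TPM (the abundance of the transcripts of a gene, corrected for length, relative to all others in its library) in at least 4 of these 8 libraries. This rule kept 58031 of the 107891 gene models in the expression table. The series also holds wild-type Cadenza and *Rht-D1b* seedlings with the same 2 treatments and 4 libraries in each group, 24 libraries in all. All seedlings were 7 d old and were sampled 8 h after application of 100 µM GA3 or of water, and the sample was the leaf sheath from the grain up to the coleoptile tip. All lines were in the Cadenza background. The *idd5* line combines chemically induced mutations of the 3 *IDD5* homoeologues, with premature stop codons in the A1 and D1 copies and a changed splice donor site in the B1 copy. It was selected after repeated backcrossing to Cadenza, and other induced mutations linked to these genes or elsewhere can remain. *Rht-D1b* is a near-isogenic line with a semidwarfing allele of the DELLA gene *RHT-D1*. The replicates were biological replicates, and whether each held 1 seedling or several was not given in the sources used here. The tissue was a bulk sample, so fewer cells of a type and less RNA per cell cannot be told apart. Tissue markers were not analysed here because the identifiers were not paired with names.

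Gibberellin acts in cereals by binding its receptor GID1, which then binds DELLA proteins and leads to their degradation. DELLA proteins, encoded in wheat by the *RHT1* homoeologues, restrain growth and act through transcription factors because they do not bind DNA well themselves. *IDD5* encodes a zinc finger transcription factor of the INDETERMINATE DOMAIN family, members of which bind DELLA proteins. The comparison of GA-treated with water-treated *idd5* asks which transcripts still respond to the hormone when IDD5 is impaired.

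No gene of *idd5* passed the threshold for a differentially expressed gene (DEG), which was an adjusted p-value under 0.01 (limma, Benjamini-Hochberg adjustment over the 58031 genes). The count was 0 (0% of those tested), and the smallest adjusted p was 0.195. At an unadjusted p-value under 0.05 there were 3953 genes (6.81%), of which 1096 (1.89%) were higher and 2857 (4.92%) lower with GA3. Genes without any overlap between the 4 GA-treated and the 4 water-treated libraries numbered 659 (1.14%) with higher and 1398 (2.41%) with lower values after GA3. The number of DEGs was 2 with no filter on low values, 1 with no mean-variance trend and 3 when GA3 replicate 2 was left out. In Cadenza, the same fit over the same genes gave 60 DEGs (0.103%), 32 higher and 28 lower, and 5235 genes (9.02%) at an unadjusted p-value under 0.05. In *Rht-D1b* it gave 0, with 3383 genes (5.83%) at an unadjusted p-value under 0.05 and a smallest adjusted p of 0.342. With a different test, DESeq, the study reported more DEGs after GA3 in each genotype, *idd5* among them. The count of 0 in *idd5* thus belongs to the fit of TPM used here and does not show that no gene responded. The response of *idd5* was not shown to differ from that of Cadenza for any single gene over the whole table, where 0 genes passed in limma's test of the difference, the smallest adjusted p was 0.0939, and 3358 (5.79%) had an unadjusted p-value under 0.05. Against *Rht-D1b*, 0 genes passed, the smallest adjusted p was 0.447, and 2733 (4.71%) had an unadjusted p-value under 0.05.

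Changes in *idd5* were small for most genes. The median log2 fold change was -0.03 on the log2(TPM + 0.5) scale, on which changes of genes with few TPM appear too small, and the median size of the change was 0.105 against a median standard error of 0.146. The fitted change was more than 2-fold for 438 of the 58031 genes, 108 of them higher and 330 lower. Of the 330, 13 (3.94%) were in an interval of chromosome 2A described below. The 95% confidence interval lay wholly within a log2 fold change of 1 in either direction for 53453 genes (92.1%), and within 0.5 for 36260 (62.5%). These intervals rest on the spread between replicate libraries, because TPM keeps no read depth. That spread was estimated for each gene over all groups of the series together. An interval can therefore be too narrow for a gene that varies more between *idd5* libraries than in the other groups, and too wide in the reverse case.

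The excess of lower over higher values depended on the scaling of the libraries. Of the genes with an unadjusted p-value under 0.05, 72.3% were lower with GA3 in the deposited TPM and 50.4% after median-ratio scaling, in which each library is divided by the median ratio of its genes to their mean over all libraries. This scaling brings the median change near 0 by construction (0.00449 here), which favours an even split. The 2 shares therefore do not show which scaling is right. In the deposited TPM the balance of lower and higher genes also varied with transcript abundance. Among the 6970 genes with a mean under 1 TPM the median log2 fold change was -0.05, and 103 were higher and 303 lower at an unadjusted p-value under 0.05. Among the 1656 genes with at least 100 TPM the median was 0.02, and 124 were higher and 80 lower. Cadenza had medians of -0.04 and 0.04 in the same 2 classes, and *Rht-D1b* had -0.01 and 0.03.

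Of the *IDD5* transcripts, only that of the B1 copy set the *idd5* libraries apart from those of the other genotypes. TPM of a gene cannot show the stop codons of the A1 and D1 copies or the changed splicing of the B1 copy. In water, the A1 and D1 copies had means of 9.28 and 10.7 TPM in *idd5* and 9.06 and 11.6 TPM in Cadenza. *IDD5-B1* (TraesCS2B02G218900), the copy with the splice site mutation, had 35.68, 34.93, 36.75 and 36.18 TPM in water-treated *idd5* replicates 1 to 4 and 35.50, 35.15, 30.48 and 35.63 TPM in GA-treated replicates 1 to 4. All 8 values lay above those of the Cadenza and *Rht-D1b* libraries, of which the highest was 10.75 TPM. Between treatments the values overlapped, replicate 3 with GA3 was the lowest, and the log2 fold change was -0.07 (standard error 0.0717, adjusted p = 0.917 in limma's test). Spliced and unspliced transcripts of the gene are counted together in these values.

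*IDD5-A1* (TraesCS2A02G188400), with a premature stop codon, had 9.16, 8.56, 9.80 and 9.58 TPM in water and 9.52, 9.57, 8.82 and 8.77 TPM with GA3. The groups overlapped, with a log2 fold change of -0.02 (95% interval -0.183 to 0.153, adjusted p = 0.991 in limma's test) and an exact two-sided permutation p of 0.771. The sign of this value turned with median-ratio scaling, where it was 0.02. *IDD5-D1* (TraesCS2D02G199300), also with a stop codon, had 10.88, 10.66, 11.20 and 10 TPM in water and 11.93, 12.80, 12.68 and 10.55 TPM with GA3. Its GA-treated replicates 1 to 3 lay above every water-treated library and replicate 4 lay within their range. The log2 fold change was 0.16 (95% interval -0.00719 to 0.32, adjusted p = 0.749 in limma's test, exact two-sided permutation p = 0.114).

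The *RHT1* homoeologues encode the DELLA proteins on which GA acts, and in Cadenza each of the 3 had higher TPM in all 4 GA-treated than in all 4 water-treated libraries. In *idd5* none of the 3 separated by treatment, and the same held in *Rht-D1b*, where the log2 fold changes of the A1, B1 and D1 copies were 0.11, 0.10 and 0.06 (adjusted p = 0.917, 0.927 and 0.961 in limma's test). *RHT-D1* (TraesCS4D02G040400) had 53.21, 52.69, 50.83 and 57.46 TPM in water and 59.08, 46.80, 56.17 and 54.13 TPM with GA3. Both the highest and the lowest of these 8 values were from GA-treated seedlings. The log2 fold change in *idd5* was 0.01 (95% interval -0.14 to 0.159, adjusted p = 0.994 in limma's test), and its sign turned when water replicate 3, GA3 replicate 1 or GA3 replicate 3 was left out. In Cadenza *RHT-D1* rose from 65.7 ± 3.95 to 87.6 ± 5.28 TPM (SD, n = 4 each), a log2 fold change of 0.41 (adjusted p = 0.00939 in limma's test), and it was among the 60 DEGs. The difference between the responses of *idd5* and Cadenza was -0.40 (standard error 0.102, unadjusted p = 0.000688, adjusted p = 0.359 in limma's test over all genes), which did not pass the correction.

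*RHT-B1* (TraesCS4B02G043100) had 69.40, 68.82, 62.48 and 64.06 TPM in water-treated and 74.87, 67.54, 83.18 and 77.17 TPM in GA-treated *idd5*. GA-treated replicates 1, 3 and 4 lay above all water-treated libraries, and replicate 2 lay among them. The log2 fold change was 0.19 (95% interval 0.0326 to 0.347, adjusted p = 0.646 in limma's test, exact two-sided permutation p = 0.0857), beside 0.29 in Cadenza (adjusted p = 0.12). For *RHT-A1* (TraesCS4A02G271000) the water-treated libraries had 65.27, 67.44, 67.16 and 62.39 TPM and the GA-treated libraries 67.67, 63.13, 78.10 and 75.91 TPM. Replicates 3 and 4 with GA3 stood above the rest, and replicate 2 was low in this gene as in the other DELLA genes. It differed by a log2 fold change of 0.11 (95% interval -0.0411 to 0.268, adjusted p = 0.833 in limma's test, exact two-sided permutation p = 0.2), beside 0.32 in Cadenza (adjusted p = 0.0589). The differences in response between *idd5* and Cadenza had adjusted p-values of 0.88 for *RHT-A1* and 0.96 for *RHT-B1* in limma's test.

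**Figure D1:**
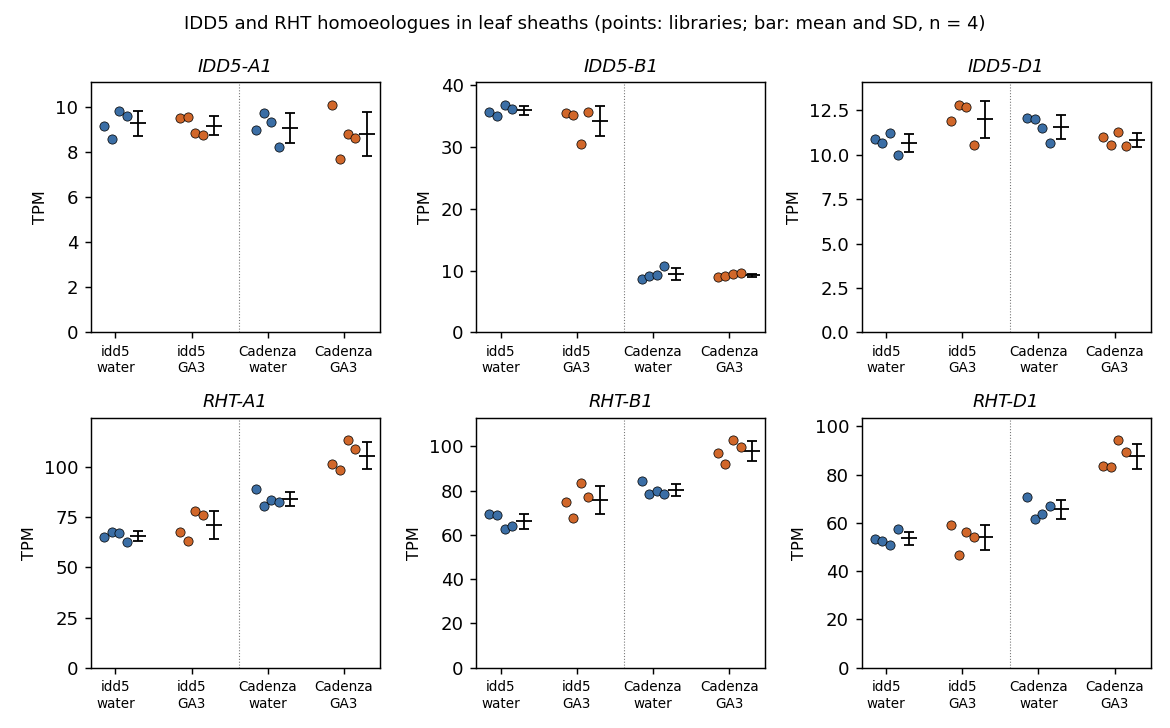
TPM of the *IDD5* (upper row) and *RHT1* (lower row) homoeologues in *idd5* and Cadenza, with a point for each library (blue, water; orange, GA3) and bars for the mean and SD of 4 libraries. *IDD5-B1* lies between 30.48 and 36.75 TPM in *idd5*, and the GA-treated and water-treated points of *idd5* overlap in every panel, while those of Cadenza are apart for *RHT-A1*, *RHT-B1* and *RHT-D1*.

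The genes with the smallest unadjusted p-values had levels of a few TPM, and none passed the adjusted threshold. They are given by identifier because the table pairs no names with identifiers. For each of the 4 the treatments did not overlap in *idd5*, which the choice by p-value makes likely, and the exact two-sided permutation p was 0.0286, the smallest that 4 libraries against 4 allow.

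TraesCS5B02G010600, on chromosome 5B, had 0.74, 0.13, 0.39 and 0.24 TPM in water-treated and 1.15, 1.48, 1.05 and 2.1 TPM in GA-treated *idd5*. Every GA-treated library was above every water-treated one, and the log2 fold change was 1.17 (standard error 0.201, adjusted p = 0.223 in limma's test). Only 1 water-treated library had 0.5 TPM or more, so the gene met the rule through its GA-treated libraries, and a higher value with GA3 was built into its choice. In Cadenza the gene had 4.71 ± 0.912 TPM in water and 4.02 ± 0.868 TPM with GA3 (SD, n = 4 each), and in *Rht-D1b* 0.0425 ± 0.0532 TPM with either treatment. GA-treated *idd5* thus lay between the water-treated *idd5* libraries and the Cadenza libraries, of which the lowest had 2.88 TPM. The response of *idd5* exceeded that of Cadenza by 1.38 (standard error 0.284, adjusted p = 0.203 in limma's test).

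TraesCS7A02G488500, on chromosome 7A, had 2.70, 2.65, 2.52 and 3.10 TPM in water and 4.11, 4.41, 5.05 and 4.07 TPM with GA3 in *idd5*. The GA-treated values were also above the Cadenza mean of 3.42 ± 0.572 TPM with GA3 (SD, n = 4), although the highest Cadenza library equalled the lowest of them at 4.07 TPM. Its log2 fold change was 0.60 in *idd5* (standard error 0.118, adjusted p = 0.331 in limma's test), 0.08 in Cadenza and 0.08 in *Rht-D1b*.

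TraesCS7B02G448000, on chromosome 7B, had 0.73, 1.27, 0.60 and 1.07 TPM in water-treated and 0.25, 0.10, 0.36 and 0.11 TPM in GA-treated *idd5*. It was listed at 0 in all 8 Cadenza libraries and in all *Rht-D1b* libraries but 1, which had 0.11 TPM. The log2 fold change in *idd5* was -0.998 (standard error 0.162, adjusted p = 0.195 in limma's test), and the adjusted p was 0.00387 with no filter on low values and 0.00466 with no mean-variance trend. The gene met the rule of 0.5 TPM only through its water-treated libraries, as 36 genes did in all, so its lower value with GA3 was likewise built in.

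TraesCS5B02G048700, on chromosome 5B, had 7.67, 8.09, 3.96 and 3.45 TPM in water-treated *idd5*, with replicates 1 and 2 above replicates 3 and 4. With GA3 it had 2.11, 2.42, 1.59 and 1.04 TPM. Its log2 fold change was -1.41 (standard error 0.258, adjusted p = 0.331 in limma's test). In Cadenza the gene had 4.05 ± 0.745 TPM in water and 6.04 ± 1.40 TPM with GA3 (SD, n = 4 each), a log2 fold change of 0.51. The difference between the 2 responses was -1.93 (standard error 0.365, adjusted p = 0.12 in limma's test).

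**Figure D2:**
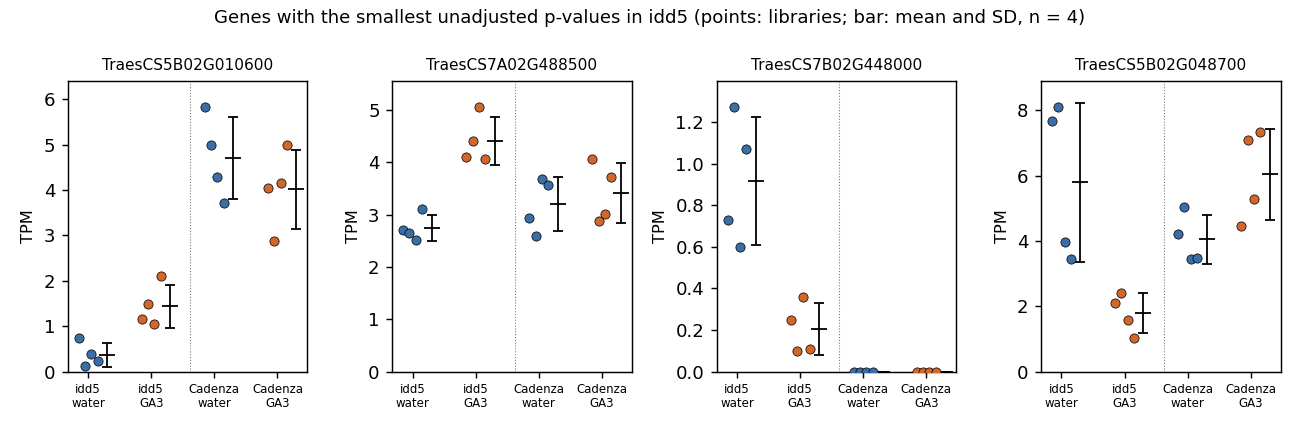
TPM of the 2 higher and the 2 lower genes with the smallest unadjusted p-values in *idd5*, with a point for each library of *idd5* and Cadenza (blue, water; orange, GA3) and bars for the mean and SD of 4 libraries. The treatments are apart in *idd5* in each panel, and TraesCS7B02G448000 is listed at 0 in all 8 Cadenza libraries.

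A switch between 0 and expression was rare. In *idd5*, 1 gene was listed at 0 in all 4 water-treated libraries and had at least 0.5 TPM in all 4 GA-treated libraries, and 3 genes had the reverse pattern. Each of these 4 met the rule of 0.5 TPM only through the treatment in which it was expressed, so the rule itself required them to differ. The gene with GA3 expression, on chromosome 5B, had 0.88, 2.15, 2.39 and 6.84 TPM in GA-treated *idd5*. It was expressed in all Cadenza libraries, where the lowest had 1.63 TPM in water and 2.60 TPM with GA3. In *Rht-D1b* it had 0, 0, 0 and 2.76 TPM in water and 0.73, 3.66, 2.91 and 3.62 TPM with GA3, a pattern close to that of *idd5*. The 3 reverse genes, on chromosomes 4A and 6D and on unplaced sequence, had between 0.54 and 4.50 TPM in water-treated *idd5*. The counts were 3 and 0 in Cadenza and 0 and 3 in *Rht-D1b*. An entry of 0 can be a failed estimate of a low level, and no fold change was derived for these genes. Of the 58031 genes tested, 16 were higher and 50 lower in *idd5* with no overlap and a more than 2-fold change. The counts were 38 and 149 in Cadenza and 43 and 36 in *Rht-D1b*.

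The 60 DEGs of Cadenza had smaller fitted changes in *idd5*. The 32 genes that rose in GA-treated Cadenza had a median log2 fold change of 0.48 there, of 0.08 in *idd5* and of 0.09 in *Rht-D1b*, beside a median of -0.03 over all genes tested in *idd5*. In *idd5*, 27 of the 32 were higher with GA3 (42.2% of all genes were), and 5 of them, or 15.6%, had an unadjusted p-value under 0.05 (1.89% of all genes did). The 28 genes that fell in GA-treated Cadenza had medians of -0.87 in Cadenza, -0.13 in *idd5* and -0.12 in *Rht-D1b*. In *idd5*, 21 of the 28 were lower with GA3 (57.8% of all genes were), and 5 of them, or 17.9%, had an unadjusted p-value under 0.05 (4.92% of all genes did). No gene of either list had an unadjusted p-value under 0.05 in the opposite direction, and 2 genes of each list reached at least 0.5 of their Cadenza log2 fold change. In *Rht-D1b*, 27 of the 32 were higher and 24 of the 28 lower with GA3, so a change in the Cadenza direction was not particular to *idd5*.

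For 59 of the 60 genes the 95% interval of the *idd5* response ended short of the fitted Cadenza change. The test of the difference in response had an unadjusted p-value under 0.05 for all 32 genes of the first list and 26 of the second (5.79% of all genes). Because the genes were chosen by their change in Cadenza, the Cadenza values and both of these counts are raised, and over all genes no difference passed.

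The level of these genes in *idd5* already differed from Cadenza in water. Set against the mean of water-treated Cadenza, the median of the 32 genes in the 4 water-treated *idd5* libraries was -0.25, -0.27, -0.28 and -0.26 on the log2 scale. In the 4 GA-treated *idd5* libraries it was -0.26, -0.27, -0.17 and -0.12, while GA-treated Cadenza reached 0.49, 0.41, 0.51 and 0.62. The list median thus stayed below the level of Cadenza in water in all 8 *idd5* libraries. The 28 genes of the second list had medians of 0.44, 0.26, 0.44 and 0.36 in water-treated and 0.28, 0.18, 0.32 and 0.30 in GA-treated *idd5*, against -0.84, -1.05, -0.88 and -0.93 in GA-treated Cadenza. The median of these 28 genes was thus above the level of water-treated Cadenza in all 8 *idd5* libraries, which did not extend to a wider list. For the 116 genes lower in GA-treated Cadenza at an adjusted p-value of 0.05 in limma's test, the median difference between *idd5* and Cadenza in water was 0.03, against 0.39 for the 28. The corresponding values of the higher lists were -0.25 for 116 genes and -0.26 for the 32. In *Rht-D1b* the median of the 32 genes was -0.26, -0.26, -0.18 and -0.32 in water and -0.02, -0.21, -0.20 and -0.19 with GA3. That of the 28 genes was 0.28, -0.06, 0.32 and 0.29 in water and 0.09, 0.05, 0.05 and 0.07 with GA3. A level of the 32 genes below that of water-treated Cadenza was thus not particular to *idd5*.

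**Figure D3:**
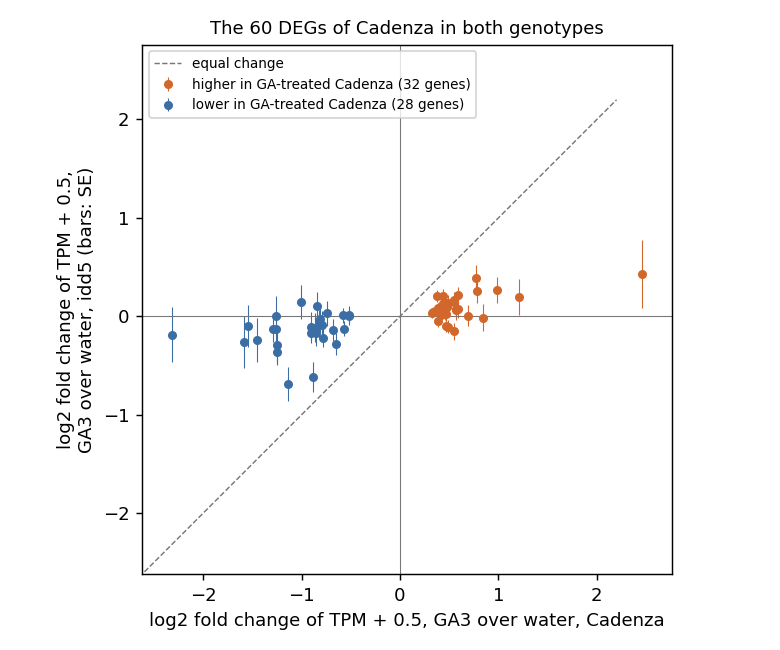
Log2 fold change of TPM + 0.5 between GA3 and water in Cadenza (horizontal) and *idd5* (vertical, bars give the standard error) for the 60 DEGs of Cadenza, with a dashed line for equal change. The 32 genes higher in GA-treated Cadenza and the 28 lower ones have medians of 0.08 and -0.13 on the vertical axis, where the 60 range from -0.69 to 0.43.

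The direction of change was then compared between genotypes at the unadjusted p-value of 0.05. Of the 2857 genes lower in *idd5* at an unadjusted p-value under 0.05, 334 were also lower in Cadenza at that level, which was 11.7% of the *idd5* genes and 10.1% of those of Cadenza, where 5.72% of all genes were lower. Higher in Cadenza were 79 of them, or 2.77%, where 3.3% of all genes were higher. Of the 1096 genes higher in *idd5*, 113 were also higher in Cadenza, which was 10.3% of the *idd5* genes and 5.9% of the Cadenza genes, with 3.3% of all genes higher there. With *Rht-D1b* the shared genes were 263 lower (9.21% of the *idd5* genes, background 3.58%) and 75 higher (6.84%, background 2.25%). After median-ratio scaling the shared percentages of the *idd5* genes were 9.76% lower and 13.2% higher in Cadenza, with backgrounds of 4.11% and 5.07%. These comparisons share no library, but they share 1 estimate of the spread of each gene, whose part in the overlap was not tested.

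In all 3 genotypes, 77 genes were lower and 16 higher at an unadjusted p-value under 0.05. These were 2.7% of the 2857 lower and 1.46% of the 1096 higher genes of *idd5*. The share that would arise without a common response was not derived. An example chosen after its values were seen is a gene on chromosome 1B with a mean of 28 TPM in water-treated and 18 TPM in GA-treated *idd5*. Its log2 fold change was -0.63 in *idd5*, -0.63 in Cadenza and -0.67 in *Rht-D1b*. A second such gene, on chromosome 3B, had 4.07 and 2.05 TPM in *idd5*, with log2 fold changes of -0.83, -0.73 and -0.83 in the same order. Across all 58031 genes the responses of *idd5* and Cadenza had a Pearson correlation of 0.121 (Spearman 0.118), those of *idd5* and *Rht-D1b* 0.0351 (Spearman 0.0769), and genes are not independent replicates.

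The genes with an unadjusted p-value under 0.05 were spread over all chromosomes, with 1 exception on chromosome 2A. Their share was between 6.13% and 8.11% on the 21 chromosomes and 6.85%, 6.83% and 6.69% in subgenomes A, B and D. The largest number of lower genes among 50 consecutive tested genes was 37 on chromosome 2A and at most 11 on any other chromosome, and the largest number of higher genes was 7. Of these 37, 36 lie in the interval from TraesCS2A02G267900 to TraesCS2A02G277100, which earlier results of these data had marked out because its genes were lower in *idd5* than in Cadenza. The interval does not hold *IDD5-A1*, and it cannot be told apart from the other properties of the *idd5* line, since the wild-type segregant of that line was not among the samples.

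The interval holds 91 gene models, of which 49 met the rule for the 8 *idd5* libraries and 42 did not. Of the 49, 2 met it only through their water-treated libraries. Lower values with GA3 were found for 45 of the 49 (57.8% of all genes were lower), and 37, or 75.5%, had an unadjusted p-value under 0.05 (4.92% of all genes). None was higher at that level and none passed the adjusted threshold, with a smallest adjusted p of 0.331 in limma's test. The median log2 fold change over the 49 was -0.69 in *idd5*, -0.06 in Cadenza and -0.01 in *Rht-D1b*. The groups did not overlap for 17 of the 49, or 34.7% (2.41% of all genes). The response was lower than in Cadenza at an unadjusted p-value under 0.05 for 24 genes, or 49% (3.23% of all genes), and lower than in *Rht-D1b* for 23, or 46.9% (2.95% of all genes). Levels of the interval genes moved together between the *idd5* libraries, as given below, so the genes are not independent replicates. Their counts rest on 4 libraries a group, and the shares of all genes are no measure of chance for them.

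Levels in single libraries were taken over the 37 interval genes whose mean in Cadenza reached 5 TPM, a choice that uses no *idd5* value and that is not the set of 37 lower genes above. As a percentage of the Cadenza mean, the median gene stood at 17.5%, 22%, 17.8% and 15.9% in water-treated *idd5* replicates 1 to 4. In GA-treated replicates 1 to 4 it stood at 10.9%, 0%, 11.4% and 9.74%. All GA-treated libraries were thus below all water-treated ones, and replicate 2 was far below the other GA-treated libraries. In that library 22 of the 37 genes were listed at 0, against 1 in GA3 replicate 4 and 0 in the other *idd5* libraries, and the summed TPM of the 37 genes was 3.03% of the Cadenza mean. The summed TPM was 11.6%, 13.1% and 12.2% in the other GA-treated and 18.7%, 23.7%, 20.4% and 17.1% in the water-treated libraries.

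Neighbouring genes did not share this pattern. Over 22 nearby genes outside the interval that also reached 5 TPM in Cadenza, the median was 89.1% to 103% in the 8 *idd5* libraries, and in Cadenza and *Rht-D1b* the interval itself stood between 88.3% and 104% in every library. With GA3 replicate 2 left out, the median log2 fold change of the 49 genes was -0.40, 29 were lower at an unadjusted p-value under 0.05, and 3 passed the adjusted threshold. These 3 were all the DEGs that *idd5* had without that library. What differed between the seedlings behind these libraries was not tested.

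**Figure D4:**
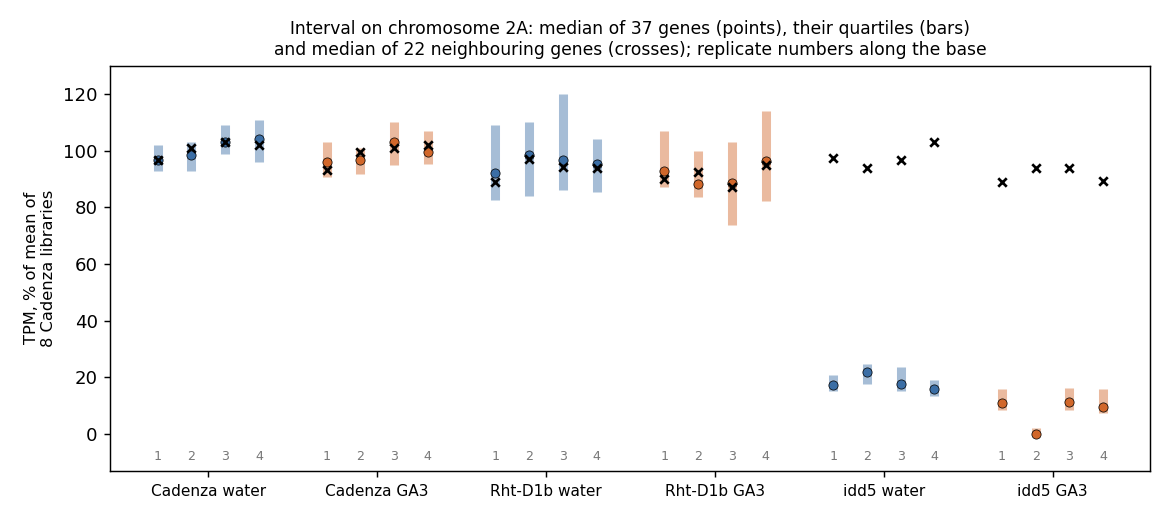
Median TPM of 37 genes of the chromosome 2A interval in each of the 24 libraries (points, with bars from the lower to the upper quartile of the genes) and of 22 flanking genes (crosses), as a percentage of the mean of the 8 Cadenza libraries. Water-treated *idd5* libraries lie between 15.9% and 22%, GA-treated ones at 11.4% or lower with replicate 2 at 0%, and flanking genes stay at 89.1% or higher in all *idd5* libraries.

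The spread between replicates was described over all genes. The median SD of a gene over 4 replicates was 0.168 in water-treated and 0.194 in GA-treated *idd5* on the log2(TPM + 0.5) scale, within the range of 0.171 to 0.202 of the other 4 groups except for the slightly lower value in water. Genes with an SD over 1 numbered 872 in water-treated and 937 in GA-treated *idd5*, against 566 and 529 in Cadenza and 795 and 983 in *Rht-D1b*. The median SD over genes in water-treated *idd5* decreased from 0.286 for genes with a mean under 1 TPM to 0.0844 for those with at least 100 TPM. With GA3 the corresponding values were 0.31 and 0.129.

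The similarity of libraries of the same treatment overlapped with that of libraries of different treatments. Pearson correlations across genes were 0.9621 to 0.9751 for the 6 pairs of water-treated libraries, 0.9587 to 0.9712 for the 6 GA-treated pairs and 0.9564 to 0.9731 for the 16 mixed pairs. Differences between the treatments accounted for 15.6% of the variance among the 8 *idd5* libraries, 19.7% in Cadenza and 13.8% in *Rht-D1b*. With 2 groups of 4 libraries and no effect of treatment, this share is expected to be 14.3%.

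The first principal component of the 8 libraries (23.6% of the variance) had scores of 11, 38.1, 37.5 and -46.1 in water and -32.1, -22.1, 49.6 and -35.9 with GA3. It did not follow the treatment (exact two-sided permutation p = 0.486), since water replicate 4 lay with GA3 replicates 1, 2 and 4, and GA3 replicate 3 lay with the other water-treated libraries. The second component (16.1%) had scores of 10.9, 37.5, 24.8 and 21.6 in water and -11.1, -42.3, -49.9 and 8.33 with GA3. Here all water-treated libraries lay above all GA-treated ones (exact two-sided permutation p = 0.0286, the smallest possible, and 0.114 after Benjamini-Hochberg adjustment over the 4 components tested).

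**Figure D5:**
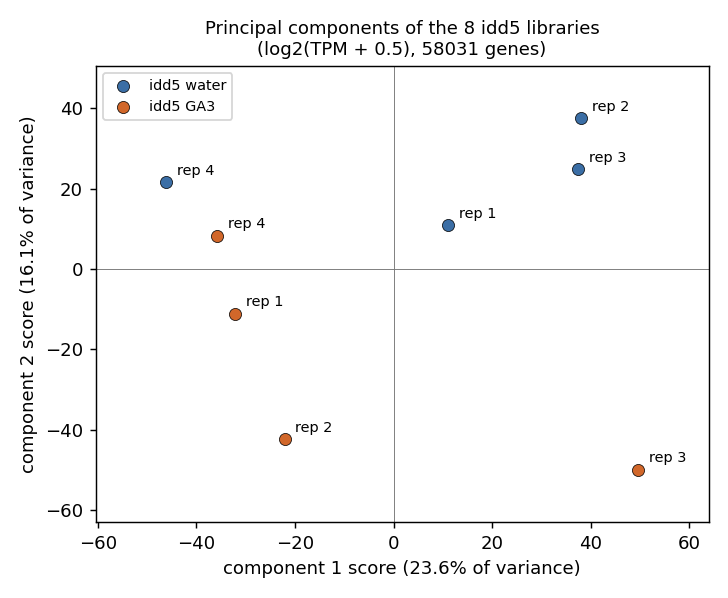
Scores of the 8 *idd5* libraries on the first (horizontal, 23.6% of the variance) and second (vertical, 16.1%) principal components of log2(TPM + 0.5) over 58031 genes, with a point for each library. The treatments are mixed along the horizontal axis and apart along the vertical one.

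Single libraries stood apart in different ways. The number of genes with at least 0.5 TPM was between 57314 and 58661 in water-treated and between 56583 and 57829 in GA-treated *idd5* libraries, and no 2 libraries held identical values. Genes that were at least 2-fold below all the other 23 libraries numbered 33 in GA3 replicate 2 and 40 in GA3 replicate 3, against 2 to 13 in the other *idd5* libraries. In GA3 replicate 2, 17 of the 33 were in the chromosome 2A interval, and in the other *idd5* libraries none was. Leaving out a library in turn gave between 3208 and 4330 genes with an unadjusted p-value under 0.05.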

How the data were processed

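The data were RNA-seq TPM of 24 leaf sheath libraries, of which the 8 *idd5* libraries are reported. The authors trimmed reads with Trimmomatic (version 0.39), quantified them with kallisto against annotated wheat gene models and deposited TPM for each gene and library. The release of the gene models differs between the methods and the labels, and 0 identifiers of the reference gene table matched, so no names, coordinates or sequences were added. TPM keeps no depth, so the depth per library is unknown and the precision rests on 4 replicates a group.

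The tests covered genes that reached 0.5 TPM in 4 or more of the 8 *idd5* libraries. Log2(TPM + 0.5) was fitted in R (version 4.3.3) with limma (version 3.58.1), taking 6 group means over all 24 libraries, empirical Bayes moderation by a mean-variance trend, and a threshold of 0.01 after Benjamini-Hochberg adjustment. For single genes, exact two-sided permutation tests were run in Python (version 3.11.15) with scipy (version 1.17.1). The fit was tested on simulated data with changes planted only in genes of higher TPM, so recovery for genes with few TPM was not tested. Replicates of a group were the libraries sharing its label. The p-values of limma rest on 1 moderated estimate of the spread of each gene, pooled over the 6 groups. Permutation p-values used only the groups compared.

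Named genes were the 6 whose identifiers the study pairs with names, and the 2 higher and 2 lower genes with the smallest unadjusted p. Lists of annotated genes could not be formed. The members and lists were chosen with earlier results of these data known. Alternatives were pseudocounts of 0.1 and 1, median-ratio scaling, other filters, array weights, no trend, a fit restricted to the libraries compared, an adjusted p of 0.05, a block for the replicate number, and leaving out each *idd5* library. Leaving out the chromosome 2A interval, and scaling or blocking for the lists, were added after seeing the data.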

Additional observations from a re-analysis of the deposited data

Results flagged for a closer look

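In 4 values, 1 of the 4 GA-treated *idd5* libraries lay far from the other 3, by Dixon's criterion for 4 samples, which chance meets in about 5% of groups. Many values were screened, among them those of all named genes and of the interval in both treatments. *IDD5-B1* was 30.48 TPM in GA3 replicate 3 and between 35.15 and 35.63 TPM in the others. The median level of the 37 genes of the chromosome 2A interval was 0% of Cadenza in GA3 replicate 2, and their summed TPM was 3.03%, against 11.6% to 13.1% in the others. Both measures are of the same genes in the same library. The score of GA3 replicate 3 on the first principal component was 49.6, and the other GA-treated libraries had scores between -35.9 and -22.1. Applied to each gene, the criterion picked out 5.5% of the 58031 genes in GA-treated and 5.17% in water-treated *idd5*, with GA3 replicate 3 the distant library for 1.85%.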

How the results depend on the processing

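The number of DEGs in *idd5* was 2 with no filter on low values, 1 with no mean-variance trend and 0 to 3 with a library left out, and 0 under the other alternatives run. The 2 were TraesCS7B02G448000 (adjusted p = 0.00387 in limma's test, and 0.00466 with no trend) and a gene on chromosome 7A that the filter removes. Genes at an unadjusted p-value under 0.05 numbered between 2999 with a filter of 2 TPM and 5558 with no filter, which test different numbers of genes. Over the same genes as the main fit they numbered between 3208 and 4496. The differences in response to GA3 between *idd5* and either other genotype gave 0 genes in each alternative. With median-ratio scaling 50.4% of the genes at an unadjusted p-value under 0.05 were lower, the median log2 change was 0.00449, and *IDD5-A1* was 0.0216. That scaling brings the median change near 0 by construction. Leaving out a library, *IDD5-A1* lay between -0.0509 and 0.0108 and *RHT-D1* between -0.0348 and 0.0762. With pseudocount 1 the median SD was 0.148 in water and 0.171 with GA3, and with a library left out it was 0.154 to 0.168 and 0.172 to 0.194. For the 232 DEGs of Cadenza at an adjusted p of 0.05, the median change in *idd5* in the Cadenza direction was 0.0793, with 168 the same way, against 0.102 and 48 for the 60 DEGs. Without a library the median of the chromosome 2A interval was -0.825 to -0.401. Whether replicate numbers pair the libraries was not settled. Deviations of same-numbered libraries correlated at 0.0582, -0.0361, 0.159 and 0.145, and 2 of the 4 water-treated libraries correlated best with their own number. Water replicate 4 correlated at 0.145 with its own number and at 0.146 with GA3 replicate 1. With the replicate block 0 genes passed and 4327 had an unadjusted p-value under 0.05, and no call changed. The alternative of high-confidence gene models was not run because all identifiers are of that kind. Recovery of low or small changes is limited by 4 libraries a group.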
